A study of Mus musculus with 8 samples.

Results

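The microRNA miR-150 and Myb, a gene for a transcription factor of blood progenitors that miR-150 is known to target, were followed over 4 bone marrow stages of the mouse B lineage. There were 3 members, mmu-miR-150-5p and mmu-miR-150-3p among the 671 mouse miRNAs (names that start with mmu-) of the miRNA table, and Myb among the 22298 rows of the mRNA table. They were chosen by their measured levels over the stages in these same libraries, so their levels are given as a description, with no test.

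A miRNA is cut from a hairpin precursor whose arms are named 5p and 3p. The arm that is loaded into an Argonaute protein pairs through its seed, bases 2 to 8, with sites that lie mostly in 3′ untranslated regions, which lowers the stability or the translation of the target mRNA. miR-150 is known as a miRNA of mature lymphocytes, and its early expression in mice is known to block B-cell development. Myb encodes c-Myb, which binds DNA, recruits the coactivators p300 and CBP, and is needed in early lymphoid cells, and its mRNA is a classical target of miR-150.

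All groups were wild-type female C57BL/6 mice aged 8 to 10 weeks, with no treatment. Live bone marrow cells that carried B220 were sorted by IgM and CD43. Of the cells without IgM, those with CD43 were taken as pro-B and those without CD43 as pre-B cells. Of the cells with IgM and without CD43, those with the usual level of B220 were taken as immature B and those with high B220 as mature B cells. Cells of 3 mice were pooled for each population, and 1 small RNA library and 1 rRNA-depleted RNA library were sequenced per stage, 8 libraries in all. With 1 library per stage and type there was no replicate check, so no p-value is given, and all intervals are 95% intervals that cover counting error only. Fewer cells of a type and less RNA per cell cannot be told apart in such bulk samples.

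The rows that carry miR-150 sequences are shown first, because both arms and their longer forms were counted separately. Sequences run 5′ to 3′ as deposited, with T in place of U, and the capitals mark bases 2 to 8, the seed.
mmu-miR-150-5p: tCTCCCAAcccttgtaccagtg
miR-150-x: tCTCCCAAcccttgtaccagtaa
miR-150-z: tCTCCCAAcccttgtaccagtgttt
mmu-miR-150-3p: cTGGTACAggcctgggggatag
miR-150-y: cTGGTACAggcctgggggataat
miR-3971-z: cTCCCAACccttgtaccagtgaa
The rows named miR-150-x, miR-150-y, miR-150-z and miR-3971-z carry no mmu- prefix, since the authors also matched tags to miRNAs of other species, and they stand outside the mmu- total. miR-150-x shares its first 21 bases with mmu-miR-150-5p and ends differently, miR-150-z shares all 22, and miR-150-y shares 21 bases with mmu-miR-150-3p. miR-3971-z starts at the second base of mmu-miR-150-5p, which moves its seed by 1 base.

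The 4 small RNA libraries held 768752 to 2106537 mmu- tags, which were 83.0% to 87.4% of all miRNA tags listed. The rRNA-depleted libraries held 867920, 240231, 223495 and 849350 mRNA counts in the order of development. The lncRNA counts of the same libraries were 2765507 to 3469757, so mRNAs made up 23.7%, 6.48%, 6.48% and 23.5% of mRNA and lncRNA counts in the order of the stages. Levels are given as CPM, per 1000000 mmu- tags for miRNAs and per 1000000 mRNA counts for mRNAs. Raw counts are also given to show depth. Since the totals differ between libraries, raw counts of different stages cannot be compared directly. The deposited FPKM values are scaled by transcript length and to another total, so Myb is given on both scales. Cd79a, Cd79b and Pax5, markers of the B lineage, were detected in all 4 libraries. Dntt, a pro-B marker, had 845 counts at that stage and 0 later, and Fcer2a, a mature B marker, had 358 counts at the last stage and 0 earlier.

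mmu-miR-150-5p was lowest in pre-B cells and highest in mature B cells, where it was the most abundant mouse miRNA. The pro-B library held 13865 tags of it, the pre-B library 3261, the immature B library 25050 and the mature B library 193065. In CPM, these were 18036 (95% interval 17737 to 18338), 2258 (2181 to 2337), 11892 (11745 to 12040) and 182070 (181259 to 182884). Pro-B and immature B cells thus held intermediate levels, between the minimum in pre-B cells and the maximum in mature B cells.

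mmu-miR-150-5p was 7.99-fold lower in pre-B than pro-B cells (log2 ratio -3.00, interval -3.05 to -2.94). It was 5.27-fold higher in immature B than pre-B cells (5.08 to 5.46) and 15.3-fold higher in mature B than immature B cells (15.1 to 15.5). Mature B cells had 80.6-fold more than pre-B cells (77.9 to 83.5) and 10.1-fold more than pro-B cells (9.92 to 10.3). The neighbouring levels in the order were those of immature B and pro-B cells, which differed 1.52-fold (1.49 to 1.55). This order turned with the scaling, from a log2 ratio of -0.60 in immature B against pro-B cells on mmu- tags to 0.08 with TMM factors and 0.26 with DESeq2 size factors, so which of these stages held more depended on the scaling. TMM and DESeq2 set library totals from the ratios of most miRNAs rather than from the sum of tags.

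In mature B cells, mmu-miR-150-5p alone took 18.2% of all mmu- tags (exact binomial interval 18.1 to 18.3%), ahead of mmu-miR-142a-5p with 13.7%. It ranked 9th in pro-B cells with 1.80%, between mmu-miR-128-3p at 2.05% and mmu-miR-484 at 1.69%. In pre-B cells it ranked 50th with 0.226%, between mmu-miR-23b-3p at 0.228% and mmu-miR-27a-3p at 0.197%. In immature B cells it ranked 14th with 1.19%, just below mmu-miR-146a-5p (1.31%) and just above mmu-miR-16-5p (1.17%). Since a share this large lowers the share of every other miRNA, levels of other miRNAs in mature B cells depend on it. For example, mmu-miR-191-5p stood at 133976 CPM in mature B cells, and at 163798 when mmu-miR-150-5p was left out of the total.

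**Figure D1:**
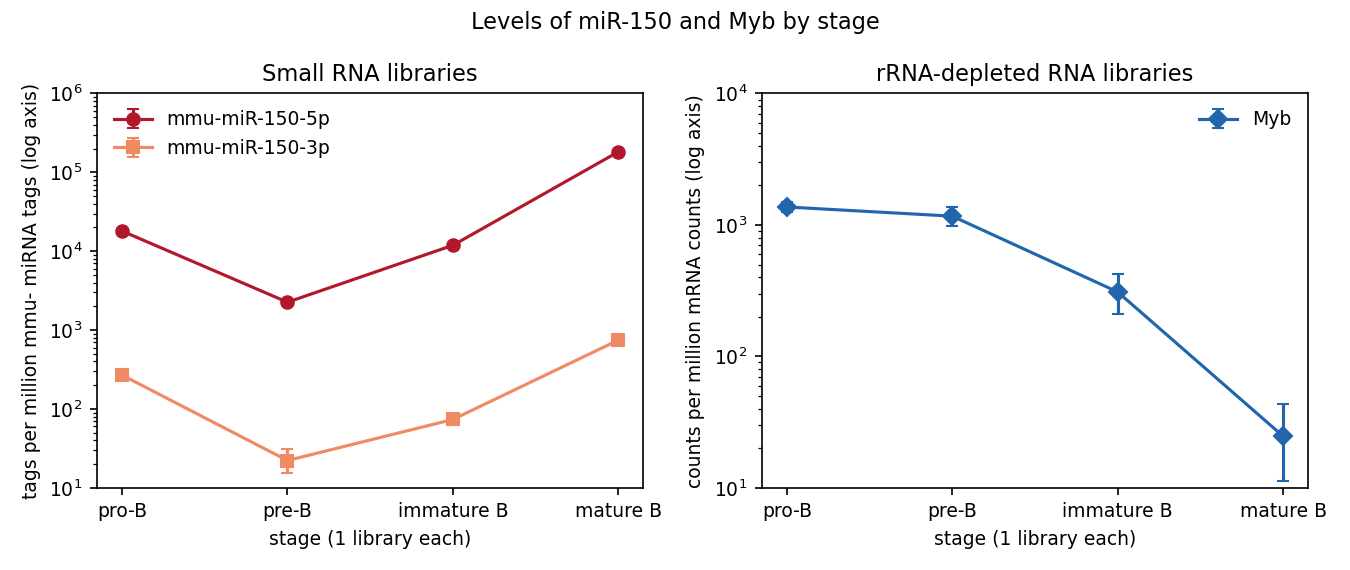
CPM of both arms of miR-150 among mmu- tags (left, log axis) and of Myb among mRNA counts (right, log axis) in 1 library per stage. Bars are exact 95% Poisson intervals, for Myb on read pairs. Both arms have their minimum in pre-B cells and their maximum in mature B cells, while Myb stands at 1370 and 1166 in pro-B and pre-B cells and at 24.7 in mature B cells.

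mmu-miR-150-3p, the less abundant arm, followed the same order of direction at much lower tag numbers. From pro-B to mature B cells it had 207, 32, 155 and 791 tags, which is 269, 22.2, 73.6 and 746 CPM. The 3p arm was 12.2-fold lower in pre-B than pro-B cells (8.35 to 18.2), 3.32-fold higher in immature B than pre-B cells (2.26 to 5.02) and 10.1-fold higher in mature B than immature B cells (8.52 to 12.1). Against pro-B cells, mature B cells had 2.77-fold more (2.37 to 3.24), a smaller ratio than that of the 5p arm over the same stages. The 3p arm ranked 131st, 240th, 154th and 70th among mmu- miRNAs in the order of the stages.

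The ratio between the arms therefore differed between stages. Of the tags of both arms, the 3p arm made up 1.47% at the pro-B stage (exact binomial interval 1.28 to 1.68%), 0.972% at the pre-B stage (0.666 to 1.37%), 0.615% at the immature B stage (0.522 to 0.719%) and 0.408% at the mature B stage (0.380 to 0.437%). These shares are ratios of 2 sequences within 1 library and do not depend on the total used for scaling. The intervals of pro-B, immature B and mature B cells did not overlap, while that of pre-B cells, based on 32 tags of the 3p arm, overlapped that of pro-B cells and of immature B cells. How well each arm is captured by library preparation was not measured.

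**Figure D2:**
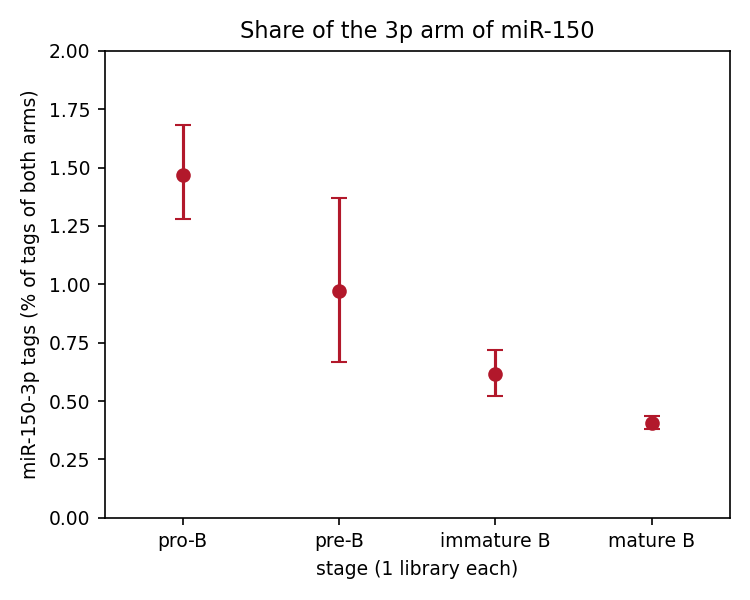
Share of mmu-miR-150-3p among the tags of both miR-150 arms (y axis, percent) by stage, with exact binomial 95% intervals, 1 library per stage. The share is 1.47% in pro-B cells and 0.408% in mature B cells, with the widest interval in pre-B cells.

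The longer forms of the 5p arm were rare in every stage. miR-150-x, with 2 changed or added bases at the 3′ end, had 111, 29, 230 and 1582 tags from pro-B to mature B cells, or 0.794%, 0.877%, 0.909% and 0.812% of the 3 rows with the 5p seed, with overlapping intervals in all 4 stages. miR-150-z had 10, 15, 22 and 63 tags, and its share was highest in pre-B cells at 0.454% (0.254 to 0.747%), against 0.0324% to 0.0869% in the other stages. On the 3p side, miR-150-y took 10.8% (7.10 to 15.5%), 8.57% (1.80 to 23.1%), 23.3% (17.6 to 29.7%) and 24.7% (22.2 to 27.5%) of the 2 rows, from 25, 3, 47 and 260 tags. The shifted row miR-3971-z had 0, 1, 3 and 10 tags. Besides miR-150-x and miR-150-z, no row of the 1600 listed miRNAs shared the seed of mmu-miR-150-5p.

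Both arms lay toward the ends of the range of all miRNAs. Of the 338 mmu- miRNAs with at least 50 tags over the libraries, only 1 had a higher ratio than mmu-miR-150-5p from pre-B to immature B cells, and 15 had a higher ratio from immature B to mature B cells. For mmu-miR-150-3p these numbers were 4 and 24. In pre-B against pro-B cells, 36 had a lower ratio than the 5p arm and 29 a lower ratio than the 3p arm. As background, 37.6% of the 338 miRNAs were at least 2-fold lower and 6.51% at least 2-fold higher in pre-B than pro-B cells. In immature B against pre-B cells the shares were 17.2% lower and 6.51% higher, in mature B against immature B cells 25.1% lower and 31.7% higher, and in mature B against pro-B cells 52.1% lower and 9.17% higher. Because the members were selected on these contrasts, their place in this background is a description only.

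Myb mRNA was high in pro-B and pre-B cells and lower in each later stage. From pro-B to mature B cells its estimated counts were 1189, 280, 69 and 21. In CPM these were 1370, 1166, 309 and 24.7, and Myb ranked 33rd, 68th, 442nd and 6054th among mRNA rows by counts. The deposited FPKM values were 67.4, 15.5, 4.20 and 1.12 in the same order. On both scales the 4 stages stood in the order of development, with pro-B cells highest.

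Most low mRNA counts were even, between 82.3% and 83.7% of the whole counts up to 10 in the 4 libraries, and paired-end reads had been mapped. Intervals of Myb were therefore also computed on read pairs, with the counts divided by 2, which makes them wider. On pairs, the level of Myb had intervals of 1261 to 1483, 980 to 1375, 211 to 425 and 11.3 to 43.3 CPM in the order of the stages. The intervals of pro-B and pre-B cells overlapped, and those of the later stages overlapped with no other.

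On the CPM scale, Myb was 1.18-fold lower in pre-B than pro-B cells, with an interval on pairs of 0.975 to 1.42 that includes no change. It was 3.78-fold lower in immature B than pre-B cells (2.62 to 5.75) and 12.5-fold lower in mature B than immature B cells (6.24 to 29.3). From pro-B to mature B cells the level was 55.4-fold lower (31.4 to 122). The largest fold between adjacent stages thus lay between immature and mature B cells, while the largest drop in CPM, from 1166 to 309, lay between pre-B and immature B cells.

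The deposited FPKM values placed the differences elsewhere, with log2 ratios of Myb of -2.12 in pre-B against pro-B cells, -1.88 in immature B against pre-B cells and -1.91 in mature B against immature B cells. The median mRNA moved as well, by -2.23, 0.06 and 2.01 on the FPKM scale and by -0.49, 0.01 and 0.31 on the CPM scale, beside the mRNA shares of the libraries given above. Taken relative to the median mRNA, the 2 scales gave nearly the same values for Myb. It stood at 0.26 (CPM) and 0.11 (FPKM) above the median log2 ratio in pre-B against pro-B cells. In immature B against pre-B cells it stood at -1.92 and -1.94, and in mature B against immature B cells at -3.95 and -3.92. From pro-B to mature B cells, whose libraries had like mRNA shares, Myb had log2 ratios of -5.79 on CPM and -5.91 on FPKM.

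**Figure D3:**
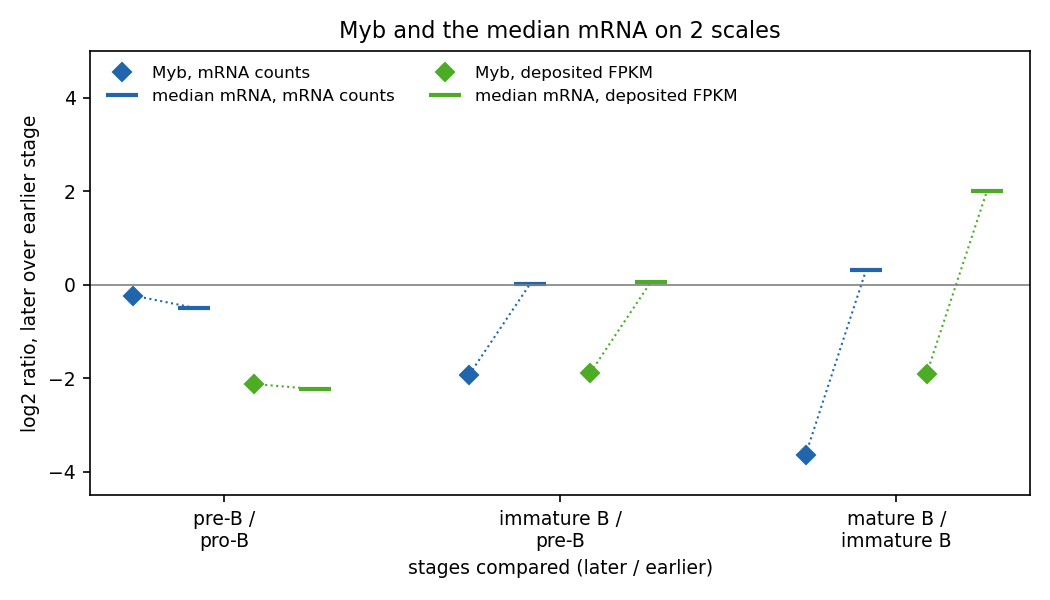
Log2 ratios between adjacent stages (y axis) of Myb (diamonds) and of the median mRNA (bars) in CPM and in deposited FPKM, 1 library per stage. Myb moves with the median mRNA in pre-B against pro-B cells on both scales and lies nearly 4 log2 units under it in mature B against immature B cells on both.

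Among the 6942 mRNAs with at least 50 counts over the libraries, 71 had a lower ratio than Myb in mature B against immature B cells, and 15 in mature B against pro-B cells. In immature B against pre-B cells 323 had a lower ratio than Myb, and in pre-B against pro-B cells 4000. As background on the CPM scale, 34.2% of the 6942 mRNAs were at least 2-fold lower and 14.0% at least 2-fold higher in pre-B than pro-B cells. The shares were 16.6% lower and 17.7% higher in immature B against pre-B cells, and 17.8% lower and 28.8% higher in mature B against immature B cells. In mature B against pro-B cells 17.5% were lower and 10.6% higher. Other rows gave no further Myb RNA, since the 1 row with the symbol Myb in the lncRNA table stood at 0 in every library and none of the 1005 circRNAs had Myb as its source gene. Of the other Myb family genes, Mybl2, known from cycling cells, had 34, 2, 0 and 4 counts from pro-B to mature B cells, and Mybl1 had 0 to 2.

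Set side by side, miR-150-5p and Myb did not move in opposite directions at every step. In pre-B against pro-B cells, mmu-miR-150-5p was 7.99-fold lower and Myb stood near the median mRNA on both scales. In immature B against pre-B cells, the miRNA was 5.27-fold higher and Myb 3.78-fold lower. In mature B against immature B cells, the miRNA was 15.3-fold higher and Myb 12.5-fold lower. The opposed direction held at the later 2 transitions. Pro-B cells had more miR-150-5p than pre-B cells. Their Myb level in CPM was 1.18-fold higher than in pre-B cells, with an interval on pairs (0.975 to 1.42) that includes no change. The miR-150-5p level of pro-B against immature B cells changed direction with the scaling. The 2 RNAs come from separate libraries with separate totals, and a correlation over 4 stages is not given.

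The pro-B library also held markers of other cell types, whose part in its miR-150 level was not tested. Of 6 markers of T and NK cells, 5 were detected in pro-B cells with 178 counts in sum, among them Gzma (106 counts) and Nkg7 (38), while Cd3e, a defining T-cell gene, was at 0. The sum was 0, 0 and 5 in the later stages. All 4 markers of plasmacytoid dendritic cells were detected in pro-B cells, with 273 counts in sum, against 14, 26 and 40 in the later stages. In CPM these sums were 315 and then 58.3, 116 and 47.1. Ccr9 made up most of the later sums, with 140, 14, 20 and 40 counts from pro-B to mature B cells. Siglech had 105, 0, 4 and 0 counts, Klk1 18, 0, 2 and 0, and Cox6a2 10 in pro-B cells and 0 later. The pro-B gate used B220, IgM, CD43 and a dead-cell stain, and no further marker.

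The other lists differed less between pro-B and pre-B cells. The 6 myeloid markers, of which Csf1r was at 0 in every library, summed to 936, 1049, 873 and 790 CPM, the 4 plasma cell markers to 316, 375, 282 and 111 CPM, and the 4 erythroid markers to at most 20.0 CPM. Among miRNAs, mmu-miR-223-3p of myeloid cells stood at 308, 152, 122 and 122 CPM, and mmu-miR-451a of red cells had 121, 68, 38 and 72 tags, 2.32-fold less per mmu- tag in mature B than pro-B cells (1.72 to 3.15). Both had their highest CPM in pro-B cells, unlike miR-150. Their log2 ratios in mature B against pro-B cells were -1.34 and -1.21, beside -1.13 for the median mmu- miRNA. With DESeq2 size factors they were -0.46 and -0.33, beside -0.25. The part of these cells in the members' levels was not tested.

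Other genes known as targets of miR-150 were read from a list of 12, all of them in the mRNA table and 9 with at least 50 counts. In mature B against immature B cells, where miR-150-5p was 15.3-fold higher, 5 of the 9 were at least 2-fold higher and 1 at least 2-fold lower in CPM, beside 28.8% and 17.8% of all mRNAs, with a median log2 ratio of 1.32 beside 0.31. Of these 5, Ccr6 passed the count filter only through its 59 counts in mature B cells. Gab1, counted in the 9, had too few counts for a ratio. The filter left out Egr2, Notch3 and P2rx7, which had few counts in mature B cells, so the tally gives no more than a description. On the FPKM scale 6 of 8 were at least 2-fold higher, beside 76.3% of all mRNAs, and none lower, with a median of 2.25 beside 2.01. In immature B against pre-B cells, 1 of 9 was at least 2-fold higher and none lower in CPM, beside 17.7% and 16.6% of all, with a median of 0.27 beside 0.01. The 1 was Arrb2, with 4 against 2 counts, and Gab1 and Ccr6 had no ratio. On FPKM, which kept Gab1, 3 of 8 were at least 2-fold higher and 1 lower, beside 21.3% and 19.5% of all mRNAs. The FPKM median there was 0.64 beside 0.06. In pre-B against pro-B cells, where miR-150-5p was lower, 4 were at least 2-fold lower and none higher in CPM, beside 34.2% and 14.0% of all, with a median of -1.21 beside -0.49. On FPKM all 8 were at least 2-fold lower there, beside 81.5% of all mRNAs, with a median of -2.45 beside -2.23.

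Foxp1, a transcription factor needed in early B cells, had 402, 61.2, 45.7 and 616 estimated counts from pro-B to mature B cells. It was 3.55-fold higher in mature B than immature B cells (2.31 to 5.64 on pairs), or 1.52 above the median mRNA in log2 on CPM and 0.48 on FPKM. Zeb1, a zinc-finger repressor, had 87, 7, 6 and 97 counts and lay 1.78 and 2.55 above the median in that comparison. Foxp1 was highest in the stage with the most miR-150-5p on both scales, while Zeb1 differed by 1.14-fold in CPM between mature B and pro-B cells (0.725 to 1.72 on pairs) and was higher in pro-B cells on FPKM.

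Cbl, an E3 ubiquitin ligase that acts on antigen receptor signalling, had 350, 32.8, 39.7 and 378 counts, and its value against the median in mature B against immature B cells changed sign with the scale, from 1.02 on CPM to -0.61 on FPKM. Ccr6, the receptor of the chemokine CCL20, had 0 counts at the 3 early stages and 59 in mature B cells, at least 5.18-fold higher than in immature B cells when 0 is set to 3 counts. Cxcr4, the receptor that holds B-cell precursors near CXCL12 in the marrow, was detected throughout. It had 949, 373, 234 and 1240 counts, or 1093, 1553, 1047 and 1460 CPM. Its log2 ratio in mature B against immature B cells was 0.17 above the median on CPM and 0.61 on FPKM.

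In contrast, Dkc1, the pseudouridine synthase dyskerin, had 51, 24, 27 and 33 counts, or 58.8, 99.9, 121 and 38.9 CPM. It lay under the median mRNA in mature B against immature B cells, by a log2 of -1.94 on CPM and -1.22 on FPKM. Gab1, an adaptor of receptor signalling, had 46, 1, 3 and 2 counts, 22.5-fold lower in mature B than pro-B cells (3.65 to 927 on pairs). Arrb2, β-arrestin 2, had 59, 2, 4 and 38 counts. Egr2 (10, 10, 4 and 2 counts), Notch3 (18, 4, 0 and 0) and P2rx7 (9, 0, 2 and 0) had too few counts to enter the summary. Of the 9 listed targets with at least 50 counts, Gab1 was the one at least 2-fold lower in mature B than pro-B cells. Ccr6, kept by its mature B counts alone, was the one at least 2-fold higher. The other 7 lay within 2-fold, as did 72.0% of all mRNAs. Of those with fewer counts, Egr2 was 4.89-fold lower (0.548 to 231 on pairs). Notch3 and P2rx7 were at least 5.87-fold and 2.94-fold lower when 0 is set to 3 counts.

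**Figure D4:**
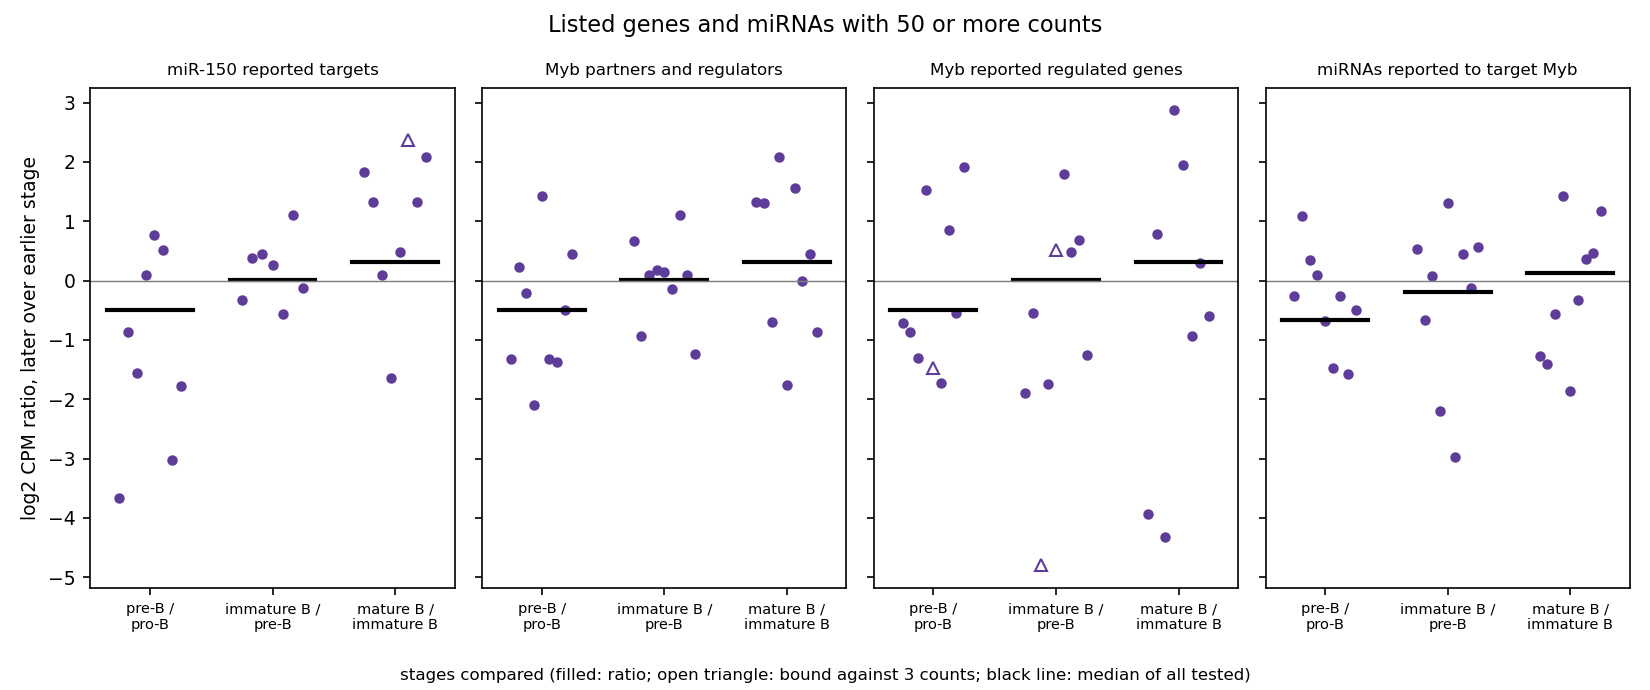
Log2 CPM ratios between adjacent stages (y axis) for listed genes and miRNAs with at least 50 counts over the libraries, 1 library per stage. Points are single genes, open triangles are bounds against 3 counts, and black lines are the median of all mRNAs or mmu- miRNAs. On FPKM the mRNA medians are -2.23, 0.06 and 2.01 in place of -0.49, 0.01 and 0.31, and the sign of several mRNA points differs there.

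Cofactors and regulators of c-Myb were read from a list of 10 genes, 9 of them with at least 50 counts. In mature B against pro-B cells 8 of the 9 lay within 2-fold, beside 72.0% of all mRNAs, with a median log2 ratio of 0.07 beside -0.11 for all mRNAs, while Pim1 was 3.18-fold lower (2.15 to 4.72 on pairs). Pim1 encodes a kinase that modifies c-Myb, and had 232, 86.7, 34.2 and 71.3 counts, or 267, 361, 153 and 84.0 CPM. Ep300, which encodes the coactivator p300, had 381, 42, 62 and 590 counts, and Crebbp, which encodes CBP, had 255, 82.8, 40.3 and 380. Both were higher in mature B than pro-B cells, 1.58-fold (1.32 to 1.91) and 1.52-fold (1.21 to 1.91), where Myb was 55.4-fold lower.

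The menin complex, through which c-Myb can contact the MLL1 histone methyltransferase, was read from Men1, Kmt2a and Psip1. Kmt2a, which encodes MLL1, had 737, 47.8, 50.2 and 806 counts and lay 1.77 (CPM) and 2.06 (FPKM) above the median mRNA in mature B against immature B cells. Psip1, which encodes the chromatin factor LEDGF, went the other way and lay -2.07 and -1.57 under the median there. It had 256, 190, 195 and 219 counts, or 295, 791, 873 and 258 CPM. Men1, which encodes menin, had 50, 12, 12 and 28 counts. Hipk1, Hipk2, Nlk and Fbxw7, which encode kinases and a ubiquitin ligase subunit that act on c-Myb, had 496, 150, 14 and 81 counts at the pro-B stage and 514, 121, 17 and 83 at the mature B stage.

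Genes reported to be regulated by c-Myb were read from a list of 12, 9 of them with at least 50 counts. From pro-B to mature B cells 3 of the 9 were at least 2-fold lower and 2 at least 2-fold higher in CPM, beside 17.5% and 10.6% of all mRNAs, with a median log2 ratio of 0.07 beside -0.11 for all mRNAs. On FPKM 3 were lower and 2 higher as well, beside 18.6% and 12.6% of all mRNAs. The median was then -0.34 beside -0.10, so its side of the background changed with the scale. The 3 lower genes were Il7r, Rag1 and Rag2, which act in early B-cell development. Il7r, the receptor subunit for interleukin-7, had 189, 32, 8 and 2 counts and was 92.5-fold lower in mature B than pro-B cells (16.1 to 3672 on pairs). Its order over the stages was that of Myb.

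The recombinase genes Rag1 and Rag2, which cut antigen receptor genes for V(D)J recombination, had different courses early on. Rag1 had 797, 89.4, 0 and 1 counts, at least 27.7-fold lower in immature B than pre-B cells when 0 is set to 3 counts. Rag2 had 95, 76, 21 and 4 counts, or 109, 316, 94.0 and 4.71 CPM. It was 3.37-fold lower in immature B than pre-B cells (1.73 to 7.96 on pairs). In pre-B against pro-B cells Rag1 lay under the median mRNA, at -0.81 on CPM and -1.01 on FPKM, and Rag2 above it, at 2.02 and 1.41.

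The 2 higher genes were Bcl2, a survival factor, with 30, 0, 4 and 111 counts, and Myc, a growth regulator, with 48, 4, 13 and 190. They were 3.78-fold (2.13 to 7.26) and 4.04-fold (2.56 to 6.62) higher in mature B than pro-B cells. Ebf1, a transcription factor of B-cell identity, had 1024, 157, 99.7 and 655 counts and was 1.53-fold lower in mature B than pro-B cells (1.33 to 1.77). Ets2 had 83, 87, 34 and 85 counts, or 95.6, 362, 152 and 100 CPM. Gfi1, a repressor, had 54, 27, 35 and 70 counts, or 62.2, 112, 157 and 82.4 CPM. Mat2a, which makes S-adenosylmethionine, had 137, 26, 39 and 183 counts, or 158, 108, 175 and 215 CPM. The other 3 genes had fewer than 50 counts, with Kit at 27, 2, 0 and 8, Ccnb1 at 24, 2, 0 and 11, and Cd34 at 1, 0, 4 and 2.

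Other miRNAs known to target Myb differed among themselves in their course. Of these, mmu-miR-200c-3p and mmu-miR-155-5p had the direction of miR-150-5p at every step in CPM. A list of 11 was used, of which 6 have 1 seed in common, and the leading ones are shown with the seed in capitals, from the deposited table and identical to RefSeq (GRCm38.p6), because the same mRNA is a reported target of different seeds.
mmu-miR-15b-5p: tAGCAGCAcatcatggtttaca
mmu-miR-16-5p: tAGCAGCAcgtaaatattggcg
mmu-miR-34a-5p: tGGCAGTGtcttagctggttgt
mmu-miR-155-5p: tTAATGCTaattgtgataggggt
mmu-miR-200c-3p: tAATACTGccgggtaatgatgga
The 6 miRNAs with the seed of mmu-miR-16-5p summed to 14742, 23263, 19748 and 10954 CPM from pro-B to mature B cells. Together they exceeded mmu-miR-150-5p in pre-B and immature B cells and stood under it in pro-B and mature B cells.

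Within this seed group, mmu-miR-16-5p had 8686, 11049, 11709 and 7915 CPM and mmu-miR-15b-5p 5609, 11846, 7503 and 2825. mmu-miR-15b-5p was 2.11-fold higher in pre-B than pro-B cells (2.04 to 2.18) and 2.66-fold lower in mature B than immature B cells (2.55 to 2.76), the opposite direction to miR-150-5p at both steps. mmu-miR-34a-5p had 40, 27, 5 and 2 tags and was 27.6-fold lower in mature B than pro-B cells (7.15 to 236). mmu-miR-155-5p had 85, 133, 263 and 170 tags, or 111, 92.1, 125 and 160 CPM, and stayed within 2-fold at each step. In CPM it was lowest in pre-B and highest in mature B cells, as was miR-150-5p.

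mmu-miR-200c-3p, with 119, 159, 345 and 392 tags, stood at 155, 110, 164 and 370 CPM. Its minimum in pre-B and its maximum in mature B cells are those of miR-150-5p. It was 1.41-fold lower in pre-B than pro-B cells (1.10 to 1.79), 1.49-fold higher in immature B than pre-B cells (1.23 to 1.81) and 2.26-fold higher in mature B than immature B cells (1.95 to 2.62). In CPM it was the 1 miRNA of the list at least 2-fold higher in mature B than pro-B cells, by 2.39-fold (1.94 to 2.96). Of all mmu- miRNAs, 9.17% were at least 2-fold higher in that comparison. The first of these steps turned with the scaling, to a log2 ratio of 0.10 with TMM and 0.15 with DESeq2 size factors, and that of mmu-miR-155-5p from -0.26 to 0.32 and 0.38. Over the list, 9 had at least 50 tags, and from pro-B to mature B cells 4 were at least 2-fold lower, beside 52.1% of all mmu- miRNAs, with a median log2 ratio of -0.99 beside -1.13.

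Among 7 other miRNAs known from lymphocytes, the course differed by miRNA. mmu-miR-181a-5p, known from lymphoid progenitors, had 93020, 172270, 313897 and 53446 tags, or 121001, 119268, 149011 and 50402 CPM. It was 2.96-fold lower in mature B than immature B cells (2.93 to 2.98). mmu-miR-17-5p and mmu-miR-20a-5p of the miR-17-92 cluster were 3.88-fold and 5.30-fold lower there. mmu-miR-29a-3p was 5.24-fold higher (5.08 to 5.40), the 1 of the 7 at least 2-fold higher at that step, beside 31.7% of all mmu- miRNAs. mmu-miR-146a-5p was 2.42-fold higher in immature B than pre-B cells (2.36 to 2.48), and mmu-miR-142a-5p 2.35-fold higher in pre-B than pro-B cells (2.32 to 2.39). mmu-miR-92a-3p lay within 2-fold at each step. In CPM, mmu-miR-146a-5p and mmu-miR-29a-3p were lowest in pre-B and highest in mature B cells, as was miR-150-5p. The log2 ratio of mmu-miR-146a-5p in pre-B against pro-B cells turned with the scaling, from -0.35 to 0.24 with TMM.

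The patterns most like those of the members were found by the smallest Euclidean distance between centred log2(CPM + 1) values over the 4 stages. Nearest to mmu-miR-150-5p among 337 other mmu- miRNAs was mmu-miR-5107-5p, at a distance of 0.946, with 13, 5, 48 and 207 tags. mmu-miR-150-3p followed at 1.41, then mmu-miR-5107-3p at 1.58, mmu-miR-29b-3p at 2.18 and mmu-miR-1843a-3p at 2.25. Of these, mmu-miR-29b-3p had 56, 27, 48 and 226 tags and mmu-miR-1843a-3p 5, 5, 10 and 45. All had far fewer tags than mmu-miR-150-5p. mmu-miR-5107-3p had 1 tag in pro-B and 0 in pre-B cells, and mmu-miR-1843a-3p 5 in each, too few to order these 2 stages.

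Among 6942 mRNAs, those nearest to mmu-miR-150-5p were Gm6377 (0.692), Gm1043 (0.756), Rasgef1b (0.772), B4galnt1 (0.868) and Setbp1 (0.916). Rasgef1b, which encodes an exchange factor of Ras-family proteins, had 31.5, 2, 8.40 and 591 counts, and B4galnt1, which encodes a ganglioside synthase, had 38.8, 2, 7.91 and 278. Gm6377 had 8, 0, 2 and 76 counts and Setbp1 15, 0, 2 and 134. These 5 rest on few counts in pre-B and immature B cells, and their likeness crosses 2 kinds of library.

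Nearest to Myb among 6941 mRNAs were Il7r (0.368), Gfra1 (0.436), Spry2 (0.596), Tifa (0.677) and Abcb4 (0.814). Gfra1, a GDNF-family receptor subunit, had 344, 61, 13 and 4 counts, and Spry2, an inhibitor of receptor tyrosine kinase signalling, had 74, 13, 4 and 1. Tifa, an adaptor of TRAF6 signalling, had 1281, 459, 137 and 39 counts, more than Myb in every stage, or 1476, 1911, 613 and 45.9 CPM. Abcb4, a phospholipid transporter, had 47, 19, 2 and 0. All 5 were highest in pro-B or pre-B cells and lowest in mature B cells.

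**Figure D5:**
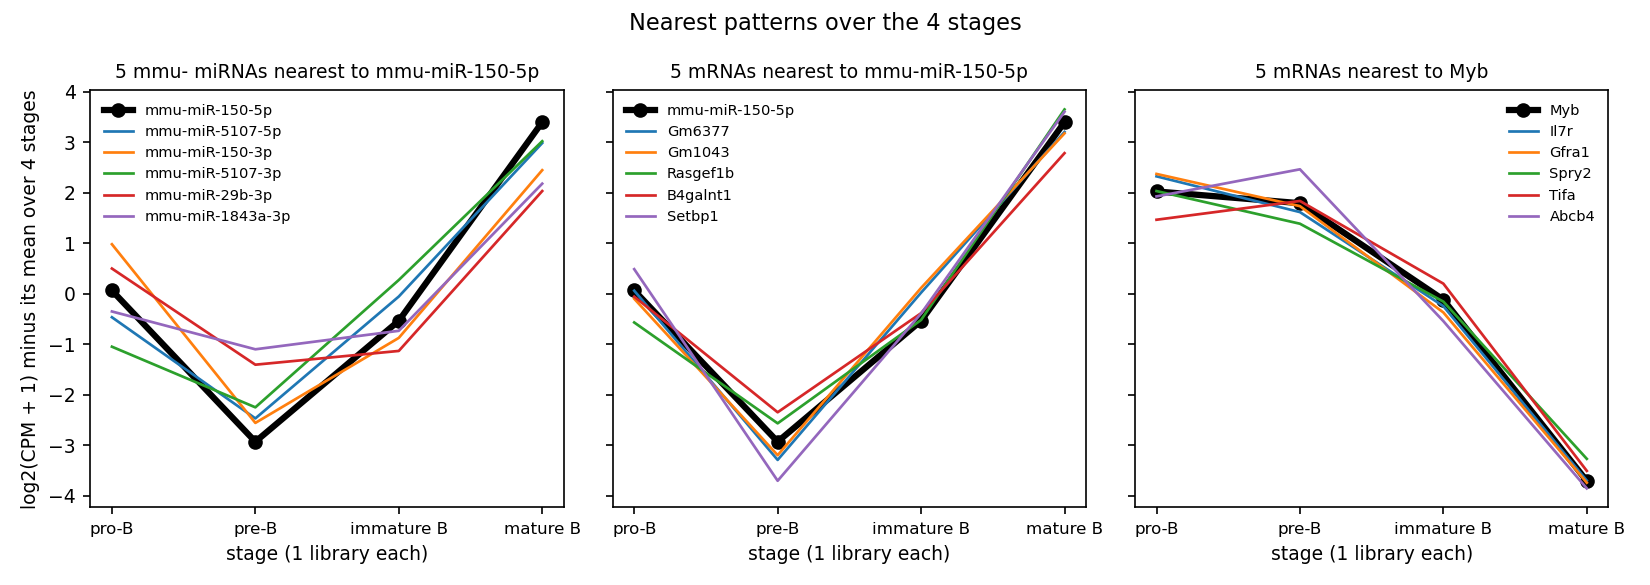
Centred log2(CPM + 1) (y axis) over 4 stages, 1 library each, of mmu-miR-150-5p with its nearest miRNAs (left) and mRNAs (middle) and of Myb with its nearest mRNAs (right). As plotted, the miR-150 group is lowest in pre-B cells and highest in mature B cells, while the Myb group is lowest in mature B cells. The pre-B minimum is uncertain for neighbours with 0 counts there, such as Gm6377, Gm1043 and Setbp1.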

How the data were processed

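The small RNA and rRNA-depleted libraries of 4 stages were each assigned to a stage by their labels. For the miRNA table the authors removed other small RNAs and matched clean tags to miRBase, and they deposited tag counts and TPM values (tags per 1000000 clean tags, with 0.01 in place of 0). For mRNAs and lncRNAs the authors removed rRNA reads, mapped paired-end reads with HISAT2 and deposited estimated counts from StringTie with FPKM values. The submitters' processing notes name Bowtie 0.12.2 and the build mm9. No coordinates were used. Target sites in Myb were not analysed here.

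Tag counts were scaled to the mmu- total and mRNA counts to the mRNA total, both as CPM. Levels carry exact Poisson intervals and ratios exact conditional binomial (Clopper-Pearson) intervals at 95%. No molecular identifiers are described, so these cover counting error only. A count of 0 was set to 3 counts for bounds, and no fold is given where both counts were 3 or fewer. Summaries used features with 50 or more counts over the 4 libraries and a ratio of 2-fold. Other scalings were the deposited TPM and FPKM, other totals, edgeR 4.0.16 TMM and DESeq2 1.42.0 size factors. Python 3.11.15, numpy 2.4.6, pandas 2.3.3, scipy 1.17.1, matplotlib 3.10.9 and R 4.3.3 were used, and the ratios were tested on simulated data. The members and lists were chosen with earlier results of these data known. Named are the members, the listed genes and miRNAs (some items are not reported here by name), rows with the miR-150 sequence, the neighbours of mmu-miR-150-5p in rank, and the 5 nearest patterns. RefSeq held 12 of the 13 listed miRNA sequences, all identical to the deposited ones, with U written as T. The 1 not found there was mmu-miR-150-5p, so its sequence is given as deposited and was not compared. Intervals on read pairs and the genes next to Mir150 and Myb were added after the values were seen.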

Additional observations from a re-analysis of the deposited data

How the results depend on the processing

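Of 96 alternative values of the members, 2 reversed and 35 others differed from the reported log2 ratio by more than counting error. Both reversals were of mmu-miR-150-5p in immature B against pro-B cells, which went from -0.60 to 0.08 with TMM and 0.26 with DESeq2 size factors. These moved the median mmu- miRNA in that comparison from -0.81 to -0.13 and 0.05, and in pre-B against pro-B cells from -0.67 to -0.08 and -0.03. The alternatives for immature B against pro-B and mature B against pre-B cells were added after seeing the data. In the former, mmu-miR-150-5p was -0.52 with the deposited TPM and -0.53 with all listed tags, mmu-miR-150-3p was -1.19 (TMM) and -1.01 (DESeq2), and Myb -4.00 (FPKM) and -4.02 (mRNA and lncRNA counts). In the latter, mmu-miR-150-5p was 6.26 (TPM), 6.62 (without its own tags) and 6.57 (DESeq2), and Myb -3.79 (FPKM) and -3.70 (mRNA and lncRNA counts). With TMM scaling, mmu-miR-150-5p stood at -2.41, 2.50, 3.87 and 3.95 in pre-B against pro-B, immature B against pre-B, mature B against immature B and mature B against pro-B cells. With DESeq2 size factors it stood at -2.36 and 2.62 in the earlier 2 of these and at 4.21 in mature B against pro-B cells. With the deposited TPM it was -2.92 in pre-B against pro-B and 3.85 in mature B against immature B cells. With all listed miRNA tags it was -2.94 in pre-B against pro-B and 3.40 in mature B against pro-B cells. Without its own tags in the total it was 4.21 in mature B against immature B and 3.60 in mature B against pro-B cells. mmu-miR-150-3p stood at -3.02 (TMM) and -2.96 (DESeq2 size factors) in pre-B against pro-B cells, and at 2.09 and 2.35 in mature B against pro-B cells. Without mmu-miR-150-5p in the total it was 3.61 in mature B against immature B and 1.73 in mature B against pro-B cells. With miR-150-y added, a choice made after seeing the data, it was 1.72 in mature B against pro-B cells. Myb stood at -2.12 (FPKM) and -2.10 (mRNA and lncRNA counts, chosen after seeing the data) in pre-B against pro-B cells, and at -1.91 and -1.78 in mature B against immature B cells, where the median mRNA moved as well. On FPKM, 100 mRNAs were at least 2-fold higher and 5357 lower in pre-B against pro-B cells, in place of 970 and 2376, and 4966 higher and 149 lower in mature B against immature B cells, in place of 1998 and 1238. Without the filter on low counts, 10 of 16 such counts moved by more than 1.5 times. For miRNAs these were 231 in place of 127 lower in pre-B against pro-B, 58 in place of 22 higher and 94 in place of 58 lower in immature B against pre-B, 171 in place of 107 higher in mature B against immature B, and 51 in place of 31 higher in mature B against pro-B cells. For mRNAs they were 2266 in place of 970 higher in pre-B against pro-B, 1996 in place of 1230 higher in immature B against pre-B, 2578 in place of 1238 lower in mature B against immature B, and 1768 in place of 733 higher and 2741 in place of 1213 lower in mature B against pro-B cells.

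No paired analysis was possible because each stage had 1 library of each type, and no library was left out. Differences between mice, sorts or library preparations were not measured. Depth limits Myb in mature B cells (21 counts) and mmu-miR-150-3p in pre-B cells (32 tags). No result met the rules for a closer look, which need replicates or other groups.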

Other observations

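The genes next to Mir150 and Myb were read after the members' values were seen, from RefSeq's order of genes in GRCm38.p6, and are given as values with no explanation. On chromosome 7, Mir150 lies next to Fcgrt, which encodes the neonatal Fc receptor. Fcgrt had 5, 0, 2 and 55 counts from pro-B to mature B cells and stood 6th among 6942 mRNAs by nearness to the pattern of mmu-miR-150-5p, at a distance of 0.975. It was 11.2-fold higher in mature B than in pro-B cells (4.54 to 36.0, on counts), where mmu-miR-150-5p was 10.1-fold higher. Rcn3, the gene beyond Fcgrt, had 7, 0, 0 and 1 counts. Rpl13a, on the other side of Mir150, had 550, 154, 193 and 900 counts, and its values are uncertain because reads of ribosomal protein genes can also come from pseudogene copies.

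On chromosome 10, Ahi1 and Hbs1l lie next to Myb. Ahi1 had 32, 2, 0 and 24 counts, and Hbs1l, which encodes a factor of ribosome rescue, had 166, 27, 34 and 99. From pro-B to mature B cells Hbs1l was 1.64-fold lower (1.27 to 2.13, on counts), where Myb was 55.4-fold lower.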
